A study of Arabidopsis thaliana with 38 samples.

Results

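The genes described here are 10 genes of the salicylic acid (SA) defence pathway of Arabidopsis thaliana: EDS1, PAD4, SID2, NPR1, ACD6, SARD1, CBP60G and the pathogenesis-related (PR) genes PR1, PR2 and PR5. They were taken by gene identifier from count tables of 27416 genes, and all 10 were found. The study sequenced poly(A)-selected RNA of 4 genotypes with 2 libraries each. The labels pair H3.1 with H3.1S28A, and H3.3 with H3.3S28A. H3.1 is the variant of histone H3 laid down when DNA is copied, H3.3 the one laid down at other times, and S28A puts alanine in place of serine 28, a residue that can be phosphorylated and that lies next to lysine 27, the site of Polycomb methylation. The labels do not say how the lines were made, which promoter drives the histone, which native H3 genes remain, or how many independent lines were used. All 4 genotypes are given as seedlings 2 weeks old with no treatment named, although the extraction text speaks of closed buds and plants were grown in long or in short days. Each S28A genotype was compared with the unaltered histone of its own pair, and the S28A effects of the pairs were then compared with each other. Nothing in the labels says that the 2 libraries of a genotype are of separately grown plants, and p-values then measure only the spread between these libraries, which may be technical.

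SA is the plant hormone of defence against pathogens that feed on living cells. Intracellular receptors signal through EDS1 and its partner PAD4, the transcription factors CBP60G and SARD1 switch on SID2, the main SA-synthesis enzyme in leaves, and the hormone then acts through NPR1, a co-activator that works with TGA transcription factors. PR1, PR2 and PR5 are the classical output genes of the pathway and code for secreted proteins. ACD6 is a membrane protein with ankyrin repeats that strengthens SA signalling, and natural alleles of it are known to trade growth against defence.

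Total counts ran from 12865999 to 24449528 per library, so that 3 counts, the limit that a count of 0 allows, stood for 0.123 to 0.233 CPM (counts scaled to the depth of the library), for counting error only. Replicates correlated with r between 0.981 and 0.992 on the log2 scale across genes, which are not independent replicates. H3.3S28A replicate 2 stood apart with a chloroplast share of 0.858% of counts, against 0.052% to 0.143% in the other libraries. Floral organ markers (AP3, PI, AG and SEP3) summed to 2.28 and 2.38 CPM in H3.1 and to 0.408 and 0.423 CPM in H3.3, against 49.9 and 7.57 CPM in H3.1S28A and 167 and 160 CPM in H3.3S28A. In both S28A genotypes the sum was mostly SEP3, at 43.2 and 5.15 CPM in H3.1S28A and 130 and 122 CPM in H3.3S28A. In H3.1S28A AP3 was at 1.13 and 0.0426 CPM, PI at 1.90 and 0.639 CPM, and AG at 5.43 and 2.04 CPM. In H3.3S28A AP3 was at 10.5 and 10.4 CPM, PI at 21.2 and 19.8 CPM, and AG at 7.67 and 7.63 CPM. AP3 was at 0 in H3.1 replicate 1 and in both H3.3 libraries. Leaf markers summed to between 57100 and 68600 CPM in every library, mostly from RBCS1A and LHCB1.3, and the sum hides shifts of single genes. RCA fell by 0.83 on the log2 scale in H3.3S28A (adjusted p 2.48e-06), where LHCB1.3 rose by 0.21 (adjusted p 0.0251). LHCB3 rose by 0.38 in H3.1S28A (adjusted p 0.0181). These small rises depended on the setting. With a trend on gene length removed, as described below, LHCB3 was at 0.26 in H3.1S28A (adjusted p 0.0924). LHCB1.3 then turned to -0.30 in H3.3S28A (adjusted p 0.00434). LHCB1.3 was at 0.12 without H3.3 replicate 2 and at 0.12 without H3.3S28A replicate 1. The 7 root markers summed to 42.8 and 44.6 CPM in H3.1, 36.1 and 32.2 CPM in H3.1S28A, 44.5 and 41.1 CPM in H3.3, and 22.2 and 21.1 CPM in H3.3S28A. Nearly all of this came from SCR and SHR, which both fell in H3.3S28A, by 0.97 (adjusted p 6.05e-05) and by 0.78 (adjusted p 0.00091) on the log2 scale, and 3 to 5 of the 7 were at 0 in each library, among them PLT2, RHD6 and EXPA7 in every one. Senescence markers summed to 17.6 and 16.8 CPM in H3.1, 55.9 and 35.7 CPM in H3.1S28A, 46.6 and 39.0 CPM in H3.3, and 94.2 and 74.7 CPM in H3.3S28A. In H3.3S28A this sum was mostly SEN1, at 51.2 and 45.5 CPM, and SAG13, at 25.6 and 9.89 CPM, while NAP fell by 2.51 on the log2 scale (adjusted p 0.000346) and SAG29 was at -0.16 (adjusted p 0.778). The part of these shifts in the results below was not tested, and in bulk RNA fewer cells of a type and less RNA per cell cannot be told apart.

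The PR genes fell in H3.1S28A, where they were tested, and rose in H3.3S28A. PR2 and PR5 moved in opposite directions in the pairs, and PR1 rose strongly in H3.3S28A. Of the genes that act upstream, EDS1 fell in H3.3S28A while PAD4, SARD1, CBP60G and ACD6 rose there by smaller amounts, and SID2 and NPR1 did not pass the test in either pair. In the H3.1 pair, 3 of the 9 tested genes were called, all lower, against 13.5% of all 18974 genes tested (8.23% higher and 5.26% lower). In the H3.3 pair, 8 of 10 were called, 7 higher and 1 lower, but this stands against 58.4% of all 19729 genes tested (28.8% higher and 29.7% lower). A gene counts as called at an adjusted p under 0.05 in the quasi-likelihood test of edgeR, adjusted after Benjamini and Hochberg over all genes tested, and all adjusted p-values below come from it unless another tool is named. The median log2 fold change of the 9 genes in the H3.1 pair was -0.45, against -0.01 over all genes tested, and that of the 10 genes in the H3.3 pair was 0.67, against 0.01.

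**Figure D1:**
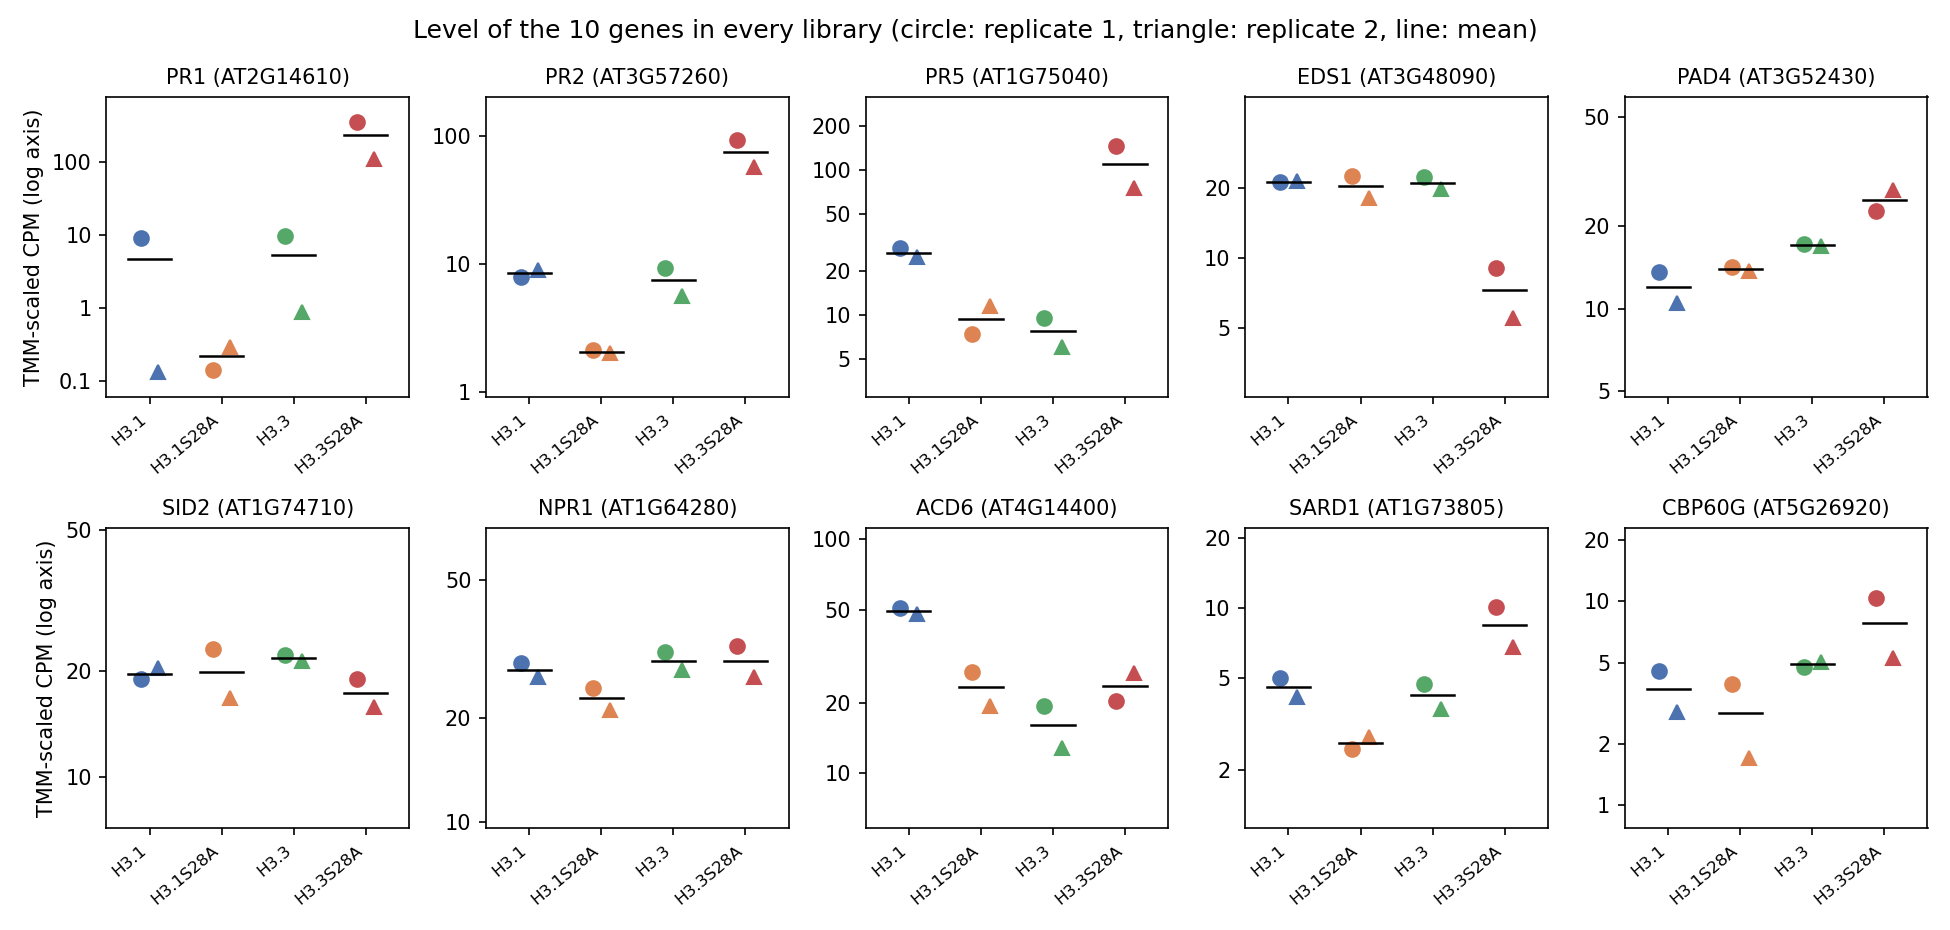
TMM-scaled CPM of each of the 10 genes in every library on log axes, with circles for replicate 1, triangles for replicate 2 and lines for the mean of a genotype. PR1, PR2 and PR5 are highest in both H3.3S28A libraries, EDS1 is lowest there, and the PR1 libraries of H3.1 and of H3.3 lie far apart.

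PR1 (AT2G14610) codes for a small secreted protein of the CAP family and is the usual reporter of SA signalling. Its level was 9.14 and 0.134 CPM in the H3.1 libraries, 0.141 and 0.298 CPM in H3.1S28A, 9.59 and 0.882 CPM in H3.3, and 351 and 107 CPM in H3.3S28A (TMM-scaled, all 8 libraries together). Both H3.3S28A libraries lay above all others, while H3.1 and H3.1S28A overlapped because H3.1 replicate 2 held 3 counts and H3.1 replicate 1 held 200. In the H3.3 pair PR1 rose by 5.50 on the log2 scale (SE 0.68, adjusted p 4.45e-05), or 45.3-fold. The size of this rise depended on single libraries, at 8.02 without H3.3 replicate 1, 4.60 without H3.3 replicate 2, 4.38 without H3.3S28A replicate 1 and 6.11 without H3.3S28A replicate 2. PR1 did not pass the filter on low counts in the H3.1 pair and has no test there. Without that filter its difference was -4.26 (SE 0.84, adjusted p 0.000489), a value that rests on H3.1 replicate 1 alone.

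In H3.1 and in H3.3 the replicates disagreed on PR1 more than on any other gene compared. On a scale of CPM + 0.5, the replicates of H3.1 differed 15.2-fold and those of H3.3 differed 7.30-fold, in each genotype the largest ratio of the 18225 genes with a mean of at least 1 CPM. The median gene differed 1.1-fold and 1.09-fold. The H3.3S28A replicates differed 3.28-fold on PR1, which placed it at rank 109. In H3.1S28A, where PR1 was near the counting floor, the ratio was 1.24. A mean ± SD of PR1 (4.64 ± 6.37 CPM in H3.1 and 5.23 ± 6.16 CPM in H3.3, n = 2) therefore has an SD larger than the mean.

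PR2 (AT3G57260) codes for a beta-glucanase that cuts the glucans of fungal and oomycete cell walls. Its level was 7.95 and 8.99 CPM in H3.1, 2.12 and 2.00 CPM in H3.1S28A, 9.38 and 5.65 CPM in H3.3, and 93.0 and 57.0 CPM in H3.3S28A. The replicates of each pair's genotypes did not overlap, and the H3.1S28A libraries were the lowest of all 8. PR2 fell by 2.04 on the log2 scale in H3.1S28A (SE 0.22, adjusted p 0.000119) and rose by 3.37 in H3.3S28A (SE 0.25, adjusted p 1.21e-06), or 10.4-fold. Across all 11 alternative settings of each pair the difference stayed between -2.14 and -1.95 in the first pair and between 2.97 and 3.74 in the second, each called.

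PR5 (AT1G75040) codes for a thaumatin-like protein. Its level was 28.9 and 25 CPM in H3.1, 7.41 and 11.5 CPM in H3.1S28A, 9.59 and 6.02 CPM in H3.3, and 145 and 75.2 CPM in H3.3S28A. Both pairs were free of overlap, and H3.1S28A and H3.3 held like levels, although those libraries come from separate tables. PR5 fell by 1.48 on the log2 scale in H3.1S28A (SE 0.17, adjusted p 0.000241) and rose by 3.88 in H3.3S28A (SE 0.29, adjusted p 1.33e-06), or 14.7-fold. Both calls held under all 11 alternative settings of each pair. Its neighbours on either side in the RefSeq gene order, the thaumatin-family gene TLP-3 and AT1G75050, also rose in H3.3S28A, by 1.07 (adjusted p 0.0036) and 2.33 (adjusted p 0.00486). They were not called in H3.1S28A, at -0.80 (adjusted p 0.0979) and -1.40 (adjusted p 0.129). AT1G75050 was low, at 0.355 and 0.363 CPM in H3.3 and 2.35 and 1.09 CPM in H3.3S28A, so its call says little.

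ACD6 (AT4G14400) showed the same pair of directions at a smaller size. Its level was 50.9 and 47.8 CPM in H3.1, 27.1 and 19.4 CPM in H3.1S28A, 19.3 and 12.8 CPM in H3.3, and 20.3 and 26.8 CPM in H3.3S28A. H3.1 held the highest libraries, and in each pair the genotypes did not overlap, by a narrow margin in the H3.3 pair. ACD6 fell by 1.1 on the log2 scale in H3.1S28A (SE 0.14, adjusted p 0.000394). It rose by 0.59 in H3.3S28A (SE 0.19, adjusted p 0.0193), a call lost without H3.3 replicate 2, at 0.31 (adjusted p 0.224). The neighbouring ankyrin-repeat gene AT4G14390, a relative of ACD6, rose by 3.05 in H3.3S28A (SE 0.79, adjusted p 0.00671). That call was lost without H3.3 replicate 1 (2.99) or replicate 2 (3.03). AT4G14390 was low, at 0.101 and 0.104 CPM in H3.3 and 1.07 and 0.623 CPM in H3.3S28A. It passed the filter on low counts only through H3.3S28A, so its call says little.

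PR2, PR5 and ACD6 were the members called in both pairs, and all 3 were lower in H3.1S28A and higher in H3.3S28A. Over all genes, 18721 were tested in both pairs and 238 of them, 1.27%, had that combination of calls. Among the 1806 genes called in both pairs, those 238 were 13.2%, and 475 (26.3%) were called in opposite directions of either kind.

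EDS1 (AT3G48090), the lipase-like protein through which intracellular receptors signal, went the other way from the PR genes in the H3.3 pair only. Its level was 21.1 and 21.5 CPM in H3.1, 22.5 and 18.1 CPM in H3.1S28A, 22.2 and 19.7 CPM in H3.3, and 9 and 5.53 CPM in H3.3S28A. The H3.3S28A libraries were the lowest of all 8, and the other 6 lay close together. EDS1 fell by 1.45 on the log2 scale in H3.3S28A (SE 0.20, adjusted p 8.76e-05) and was not called in H3.1S28A, at -0.07 (SE 0.13, adjusted p 0.755; 0.09 without H3.1S28A replicate 2). EDS1B, a near-identical copy beside it, was at 0.341 to 1.64 CPM and was called in neither pair (-1.33, adjusted p 0.0993, and 0.00, adjusted p 0.997). How the authors counted reads that map to both copies is not given in the sources used here, so both values are uncertain.

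PAD4 (AT3G52430), which binds EDS1, did not follow it. Its level was 13.6 and 10.5 CPM in H3.1, 14.2 and 13.8 CPM in H3.1S28A, 17.2 and 17.0 CPM in H3.3, and 22.8 and 27.1 CPM in H3.3S28A. The H3.3S28A libraries were the highest of all 8. PAD4 rose by 0.59 on the log2 scale there (SE 0.12, adjusted p 0.00185), and its difference in H3.1S28A was 0.22 (SE 0.16, adjusted p 0.406).

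SARD1 (AT1G73805) and CBP60G (AT5G26920) are related calmodulin-binding-protein-type transcription factors that act on the SID2 promoter. SARD1 was at 4.98 and 4.12 CPM in H3.1, 2.47 and 2.77 CPM in H3.1S28A, 4.72 and 3.68 CPM in H3.3, and 10.1 and 6.77 CPM in H3.3S28A. The genotypes did not overlap in either pair. SARD1 rose by 1.07 on the log2 scale in H3.3S28A (SE 0.25, adjusted p 0.00344). Its difference in H3.1S28A was -0.78 (SE 0.25, adjusted p 0.0525), close to the threshold. SARD1 was called there with no count filter, at -0.79 (adjusted p 0.0326), and its difference was -0.87 without H3.1S28A replicate 2. Over the 11 alternatives the difference ran from -0.92 to -0.64, and in 9 of them it stayed uncalled. GIP2, a gene that overlaps SARD1 in the RefSeq table, was at 1.69 to 5.99 CPM, and since no strand setting is given, reads of the overlapping genes may not be told apart.

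CBP60G was at 4.57 and 2.86 CPM in H3.1, 3.95 and 1.70 CPM in H3.1S28A, 4.77 and 5.03 CPM in H3.3, and 10.4 and 5.29 CPM in H3.3S28A. H3.1 and H3.1S28A overlapped, and the lower H3.3S28A library stood barely above the H3.3 libraries. CBP60G rose by 0.75 on the log2 scale in H3.3S28A (SE 0.29, adjusted p 0.0425). The call was lost without H3.3S28A replicate 1 (0.16, adjusted p 0.671), without H3.3 replicate 1 (0.67, adjusted p 0.185), without H3.3 replicate 2 (0.76, adjusted p 0.138), in DESeq2 (0.75, adjusted p 0.0627), and in the fit of all 8 libraries together (0.72, adjusted p 0.111). Its difference in H3.1S28A was -0.45 (SE 0.37, adjusted p 0.453), but it was -1.12 (adjusted p 0.0158) without H3.1S28A replicate 1 and 0.10 (adjusted p 0.881) without H3.1S28A replicate 2.

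SID2 (AT1G74710), also called ICS1, codes for the isochorismate synthase of SA synthesis. Its level was 18.9 and 20.3 CPM in H3.1, 23.0 and 16.7 CPM in H3.1S28A, 22.1 and 21.3 CPM in H3.3, and 18.9 and 15.8 CPM in H3.3S28A. The highest library held 1.46 times the lowest, the narrowest span of the 10 genes. SID2 differed by 0.01 in H3.1S28A (SE 0.15, adjusted p 0.985) and by -0.27 in H3.3S28A (SE 0.13, adjusted p 0.0913). Without H3.3S28A replicate 1 it was called lower there, at -0.41 (adjusted p 0.0239).

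NPR1 (AT1G64280), the SA receptor and co-activator, had a span nearly as narrow, with 1.52 times between its highest and lowest library. Its level was 28.7 and 26.2 CPM in H3.1, 24.4 and 21.1 CPM in H3.1S28A, 30.9 and 27.5 CPM in H3.3, and 32.1 and 26.2 CPM in H3.3S28A. H3.1S28A held the lowest libraries, and H3.3 and H3.3S28A overlapped. NPR1 differed by -0.27 in H3.1S28A (SE 0.12, adjusted p 0.152) and by 0.05 in H3.3S28A (SE 0.13, adjusted p 0.751). For comparison, the highest library of PR2 held 46.5 times its lowest.

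The S28A effect itself differed between the histone pairs for 6 of the 10 genes, against 39.0% of all 20052 genes tested. It was more negative in H3.1 for 5 of them, against 14.6% of all genes, and more positive for 1, against 24.4%. The contrast is the log2 fold change of the H3.1 pair minus that of the H3.3 pair, fitted on all 8 libraries, in which differences in level between the tables drop out. PR2 (-5.39, SE 0.39, adjusted p 1.35e-06) and PR5 (-5.32, SE 0.42, adjusted p 2.03e-06) differed most firmly. SARD1 differed by -1.82 (SE 0.36, adjusted p 0.00143) and ACD6 by -1.66 (SE 0.28, adjusted p 0.000464), whereas EDS1 had the opposite sign at 1.40 (SE 0.26, adjusted p 0.00093). PR1 had the largest difference, -9.70 (SE 1.84, adjusted p 0.00116), but this call was lost without H3.1 replicate 1, at -4.66 (adjusted p 0.579), and it ran from -12.26 to -8.62 without another library. For CBP60G (-1.17, adjusted p 0.108), PAD4 (-0.34, adjusted p 0.209), NPR1 (-0.30, adjusted p 0.214) and SID2 (0.30, adjusted p 0.292) a difference between the pairs was not shown, although CBP60G was called without H3.1S28A replicate 1 (-1.82, adjusted p 0.0156) without H3.3S28A replicate 2 (-1.60, adjusted p 0.0235) and with no count filter (-1.16, adjusted p 0.0199).

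**Figure D2:**
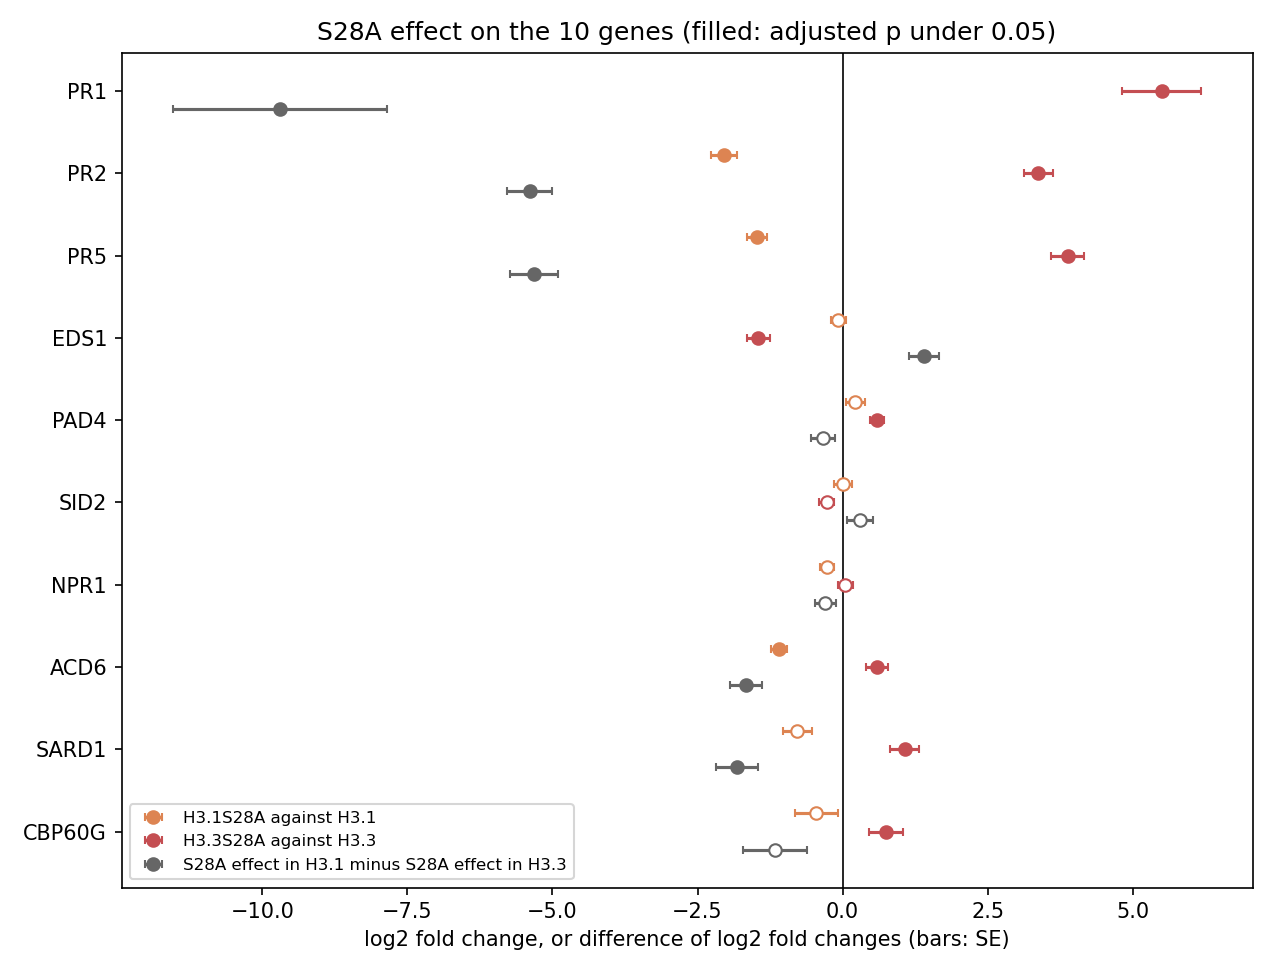
Log2 fold change of each gene in the H3.1 pair and the H3.3 pair, and the difference between them, with bars for the SE and filled points for adjusted p under 0.05. PR2, PR5 and ACD6 lie left of 0 in the H3.1 pair and right of 0 in the H3.3 pair, and PR1 has no point for the H3.1 pair because it was not tested there.

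Floral organ and senescence marker sums were higher in the S28A genotype of both pairs, though not every senescence gene was, and their part in the members' differences was not tested. The floral sum, which was mostly SEP3, differed between the H3.1S28A libraries, at 49.9 CPM in replicate 1 and 7.57 CPM in replicate 2. In the same order PR2 was at 2.12 and 2.00 CPM, PR5 at 7.41 and 11.5 CPM and ACD6 at 27.1 and 19.4 CPM. LURP1, a gene that responds to SA, was at 13.5 and 4.43 CPM there. In both pairs the log2 fold change ran against the length of the gene in the genome (Spearman rho -0.218 across 18780 genes in the H3.1 pair and -0.524 across 19525 genes in the H3.3 pair, a description over genes that share the same libraries). With that trend removed, an alternative added after seeing the data, PR1 rose by 4.86, SARD1 by 1.72 and ACD6 by 1.40 in H3.3S28A, against 5.50, 1.07 and 0.59 with it, and the contrast for ACD6 was -2.37.

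The wider pathway was described with lists of other genes, beside the share of all genes called given above. Of 9 genes that respond to SA, 8 were tested in the H3.3 pair, of which 7 rose and 1 fell, with a median log2 fold change of 2.23. Examples of the rise are LURP1, a gene induced late in oomycete infection (3, adjusted p 1.12e-06), PNP-A, a secreted natriuretic-like peptide (2.79, adjusted p 0.000124; 2.07 without H3.3S28A replicate 1), and GRX480, a glutaredoxin that binds TGA factors (2.55, adjusted p 0.000359; 1.89 with the gene-length trend removed). WRKY70, a transcription factor between the SA and jasmonate pathways, fell by 0.53 (adjusted p 0.0287), a call lost without H3.3 replicate 2 (-0.22, adjusted p 0.34). In the H3.1 pair 6 were tested and 1 fell, LURP1, at -1.38 (adjusted p 0.0136), while the median was -0.90. The count was 3 lower of 8 tested without H3.1S28A replicate 1, and 2 lower and 1 higher of 9 tested, with a median of -0.22, without H3.1S28A replicate 2. That call was lost in DESeq2 (-1.31, adjusted p 0.322) and without H3.1 replicate 1 (-1.22, adjusted p 0.0571), and its size was -2.33 without H3.1S28A replicate 1 and -0.72 without H3.1S28A replicate 2. The S28A effect differed between the pairs for 6 of 8, all more negative in H3.1, among them LURP1 (-4.37, adjusted p 3.12e-05; -5.28 without H3.1S28A replicate 1 and -3.68 without H3.1S28A replicate 2) and WRKY54 (-2.21, adjusted p 0.00188; -2.80 without H3.1S28A replicate 1). A difference between the pairs was not shown for WRKY70 (0.71, adjusted p 0.0621) or WRKY38 (-0.56, adjusted p 0.796).

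SA synthesis genes other than SID2 did not move as a group. Of 8 tested in the H3.3 pair, EDS5, which exports the SA precursor from the chloroplast, rose by 1.3 (adjusted p 0.0177), whereas the phenylalanine ammonia-lyase genes PAL1 and PAL2 fell by 0.87 (adjusted p 4.45e-06) and by 0.36 (adjusted p 0.00138). EDS5 was 0.75 (adjusted p 0.135) without H3.3 replicate 2 and 2.12 without H3.3 replicate 1, and PAL2 was -0.11 (adjusted p 0.252) with the gene-length trend removed. In the H3.1 pair PAL2 rose by 0.52 (adjusted p 0.0112), but not without H3.1 replicate 1 (0.37, adjusted p 0.107). ICS2, the second isochorismate synthase gene, was at -0.81 there (adjusted p 0.0469), with no call left when H3.1 replicate 1 (-0.76), H3.1 replicate 2 (-0.88) or the first H3.1S28A library (-0.52) was dropped (adjusted p 0.181, 0.128 and 0.179). The medians were -0.38 in the H3.3 pair and 0 in the H3.1 pair.

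Of 5 tested enzymes that hydroxylate or conjugate SA, 2 were higher and 1 was lower in H3.3S28A. S3H and DMR6, which hydroxylate SA, rose by 3.67 (adjusted p 0.000723) and 1.37 (adjusted p 0.000274), and UGT74F2, a glucosyltransferase of SA, fell by 0.39 (adjusted p 0.00498). The rise of S3H was 2.36 without H3.3S28A replicate 1 and 4.29 without H3.3S28A replicate 2, and that of DMR6 was 2.08 with the gene-length trend removed. In the H3.1 pair none of 3 tested was called by edgeR or DESeq2, with 2 at an unadjusted p under 0.05, while 1 of 4 tested was lower without H3.1S28A replicate 1 and 1 of 4 higher without H3.1S28A replicate 2. SARD4, which acts in the synthesis of pipecolic acid, the precursor of the immune signal N-hydroxypipecolic acid, was the only 1 of 3 genes on its list that was tested in the H3.3 pair, and it rose by 0.89 (adjusted p 0.000637). It was also the 1 tested in the H3.1 pair, where it was not called by edgeR or DESeq2 (-0.23, with none at an unadjusted p under 0.05).

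Among 12 receptors and cofactors of SA tested in the H3.3 pair, 3 rose and 4 fell, with a median of -0.19. The number that fell was 1 without H3.3 replicate 1, 1 without H3.3 replicate 2 and 2 without H3.3S28A replicate 2. All 3 that rose were NIMIN genes, whose proteins bind NPR1: NIMIN1 by 3.93 (adjusted p 0.000346), NIMIN2 by 1.64 (adjusted p 0.000504) and NIMIN3 by 0.54 (adjusted p 0.00174). The rise of NIMIN1 was 3.18 without H3.3S28A replicate 1 and 4.68 without H3.3 replicate 2. NIMIN1 was low, at 0.101 and 0.259 CPM in H3.3 and 3.73 and 1.63 CPM in H3.3S28A. It passed the filter on low counts only through H3.3S28A, so its call says little. TGA4, TGA6 and TGA2, transcription factors that bind NPR1, fell by 0.66, 0.63 and 0.58 (adjusted p 0.00281, 0.0364 and 0.0192). TGA6 and TGA2 lost their call without H3.3 replicate 1 (-0.75 and -0.65), H3.3 replicate 2 (-0.58 and -0.58) or H3.3S28A replicate 2 (-0.50 and -0.42). With the gene-length trend removed NIMIN1 was at 3.25, NIMIN2 at 0.96, TGA6 at -0.23 and TGA2 at -0.12, the last pair not called. NIMIN3 was then at -0.15 (adjusted p 0.28) and TGA4 at 0.51 (adjusted p 0.0145), so the directions of these small differences turned. In the H3.1 pair 11 were tested and none was called by edgeR or DESeq2, with 1 at an unadjusted p under 0.05.

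The EDS1 node and its helper receptors gave 1 higher and 3 lower of 8 tested in the H3.3 pair. NDR1, a membrane protein needed by another class of receptors, rose by 1.02 (adjusted p 0.00197), and the helper receptor genes ADR1, ADR1-L2 and ADR1-L1 fell by 0.97 (adjusted p 0.00219), 0.89 (adjusted p 0.000262) and 0.55 (adjusted p 0.00282). With the gene-length trend removed NDR1 was at 0.41 (adjusted p 0.14) and ADR1-L1 at 0.47 (adjusted p 0.00916), the latter a turn in direction. The H3.1 pair had none called by edgeR or DESeq2 of 8 tested, and 2 at an unadjusted p under 0.05. Without H3.1S28A replicate 1, 1 was lower.

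CBP60 relatives of CBP60G and SARD1 together with the CAMTA factors were mostly lower in H3.3S28A, with 7 of 9 called lower, none higher and a median of -1.14. With the gene-length trend removed this was 5 of 9 lower and a median of -0.64. CBP60F fell by 1.99 (adjusted p 1.15e-06), and CAMTA1 and CAMTA2, members of the family of calmodulin-binding factors that includes the SA repressor CAMTA3, fell by 1.93 (adjusted p 3.23e-07) and 1.68 (adjusted p 4.88e-06). With the trend removed CAMTA1 was at -0.81 and CAMTA2 at -0.64, still called. Levels of CAMTA1 were 54.2 and 46.1 CPM in H3.1, 53.5 and 56.9 CPM in H3.1S28A, 40.7 and 44.3 CPM in H3.3, and 10.7 and 10.7 CPM in H3.3S28A. Both H3.3S28A libraries therefore lay below all 6 others. None of the 9 was called in the H3.1 pair by edgeR or DESeq2, with 1 at an unadjusted p under 0.05 (1 was higher without H3.1S28A replicate 1), and 6 differed between the pairs, all more positive in H3.1. Of these, CAMTA3 (0.15, adjusted p 0.438) and CBP60C (0.21, adjusted p 0.257) were not called with the trend removed.

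Negative regulators of SA defence were divided, with 1 higher and 1 lower of 6 tested in the H3.3 pair. MLO2, a powdery mildew susceptibility protein, rose by 0.40 (adjusted p 0.00331; 0.31 and adjusted p 0.0716 without H3.3 replicate 2), and CPR5, a nuclear pore protein, fell by 0.88 (adjusted p 0.0015). The H3.1 pair had none called by edgeR or DESeq2 of 6 tested, and none at an unadjusted p under 0.05.

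Relatives of the PR genes and of ACD6 included BG3, a beta-glucanase gene close to PR2 in sequence and place, at 0.868 and 0.895 CPM in H3.1, 0.0705 and 0.213 CPM in H3.1S28A, 0.406 and 0.207 CPM in H3.3, and 7.06 and 3.27 CPM in H3.3S28A. BG3 rose by 4.11 in H3.3S28A (adjusted p 4.79e-05; 3.43 without H3.3S28A replicate 1). In H3.1S28A it was at -2.44 (adjusted p 0.0273), with no call left when H3.1 replicate 1 (-2.47), H3.1 replicate 2 (-2.44) or the first H3.1S28A library (-2.02) was dropped (adjusted p 0.158, 0.181 and 0.0921), while the size was -3.52 without H3.1S28A replicate 2. PRB1, the basic PR1-like gene beside PR1, was not called higher in H3.3S28A as PR1 was, and held only 0 and 6 counts there. It was at -1.06 in the H3.1 pair (adjusted p 0.0317), a call lost in DESeq2 (-1.08, adjusted p 0.0926) and when H3.1 replicate 1 (-1), H3.1 replicate 2 (-1.13) or the first H3.1S28A library (-0.83) was dropped, and at -2.08 in the H3.3 pair (adjusted p 0.0944). XTH10, on the other side of PR1 in the RefSeq gene order and not on this list, rose by 2.13 in H3.3S28A (adjusted p 0.00217). Its level was 0.507 and 0.622 CPM in H3.3 and 2.81 and 1.95 CPM in H3.3S28A. XTH10 was not called in H3.1S28A, at -0.57 (adjusted p 0.406). AT4G05040, another ankyrin-repeat gene, fell by 1.22 in H3.3S28A (adjusted p 0.000141). On this list 2 rose and 1 fell of 4 tested in the H3.3 pair, and 2 fell of 3 tested in the H3.1 pair.

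PR and marker genes of the jasmonate and ethylene pathways rose in H3.3S28A as well. All 5 on the list were called higher in the H3.3 pair, with a median of 1.59, and 1 of 5 was lower in the H3.1 pair, with a median of -0.59. The H3.1 pair's count was 4 lower, with a median of -1.32, without H3.1S28A replicate 1, and 1 lower and 1 higher, with a median of 0.33, without H3.1S28A replicate 2. VSP1 and VSP2, jasmonate-induced storage proteins on this list, differed widely between replicates, and VSP1 in H3.1 was at 5.71 and 38.1 CPM, while in H3.1S28A it was at 28.2 and 3.15 CPM. PDF1.2a, a plant defensin, rose by 7.71 in H3.3S28A (adjusted p 2.05e-08; 8.86 without H3.3 replicate 1 and 7.05 without H3.3 replicate 2; 7.03 with the gene-length trend removed), from 0.203 and 0.0519 CPM in H3.3 to 26.9 and 27.6 CPM in H3.3S28A. PR4, a hevein-like protein, rose by 2.04 (adjusted p 3.17e-07) and PR3, a chitinase, by 1.59 (adjusted p 0.000699). PR4 fell by 1.16 in H3.1S28A (adjusted p 0.000332), so its directions in the pairs were those of PR2 and PR5, and the contrast between the pairs was -3.17 (adjusted p 6.38e-07). Some listed genes had under 10 counts in both libraries of 1 genotype and passed the count filter through the other, so their counts among the called say little: S3H, NIMIN1, WRKY38, BG3, AT4G14390 and PDF1.2a through H3.3S28A, PRB1 through H3.3, and PNP-A and BG3 through H3.1. Each of the 10 members that was tested reached 10 counts in some library of both genotypes.

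**Figure D3:**
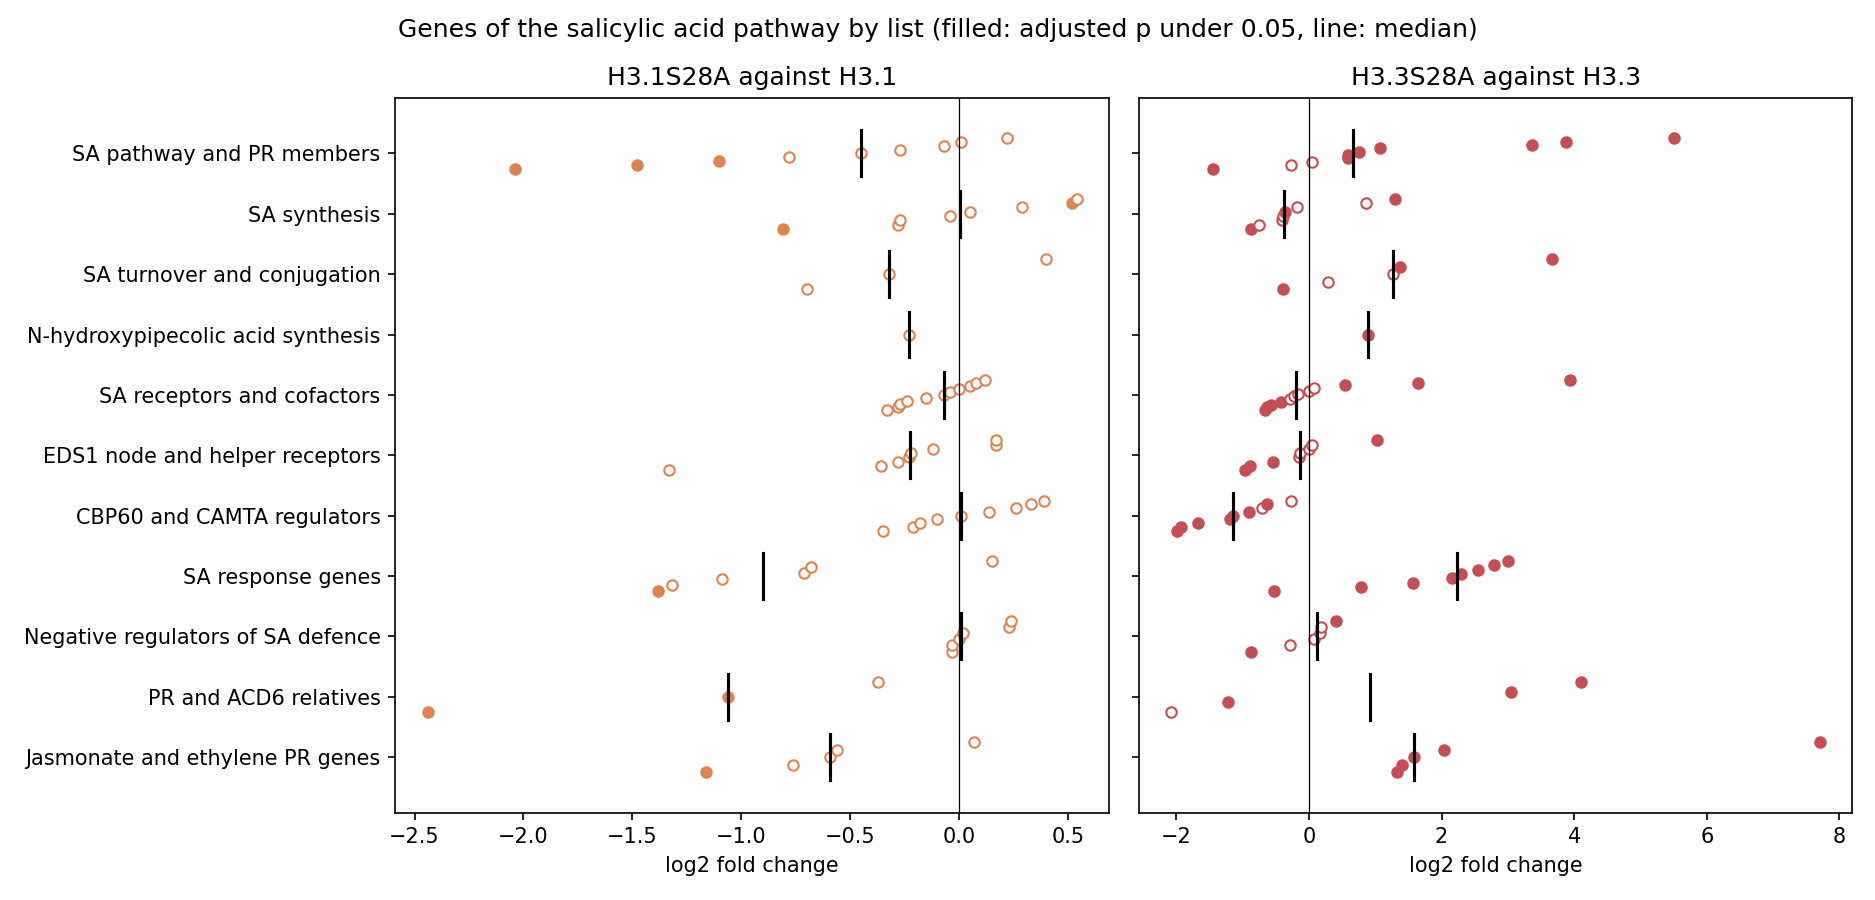
Log2 fold change of every tested gene by list, in the H3.1 pair on the left and the H3.3 pair on the right, with filled points for adjusted p under 0.05 and lines for the list median. The horizontal scales of the panels differ. SA response genes and jasmonate and ethylene PR genes have medians of 2.23 and 1.59 in the H3.3 pair, and CBP60 and CAMTA regulators have -1.14.

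The order of levels over the genotypes differed among the members. For PR1 and PR2 the H3.3S28A libraries were highest and the H3.1S28A libraries were lowest or within the range of the lowest. PR5 had H3.3S28A highest and H3.1 next, with H3.1S28A and H3.3 overlapping. ACD6 was highest in H3.1 and lowest in H3.3, and H3.1S28A and H3.3S28A overlapped between them. For EDS1 the libraries of H3.1, H3.1S28A and H3.3 overlapped and H3.3S28A lay below them. Levels between the H3.1 and H3.3 tables are set side by side only, because genotype and table cannot be told apart there.

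**Figure D4:**
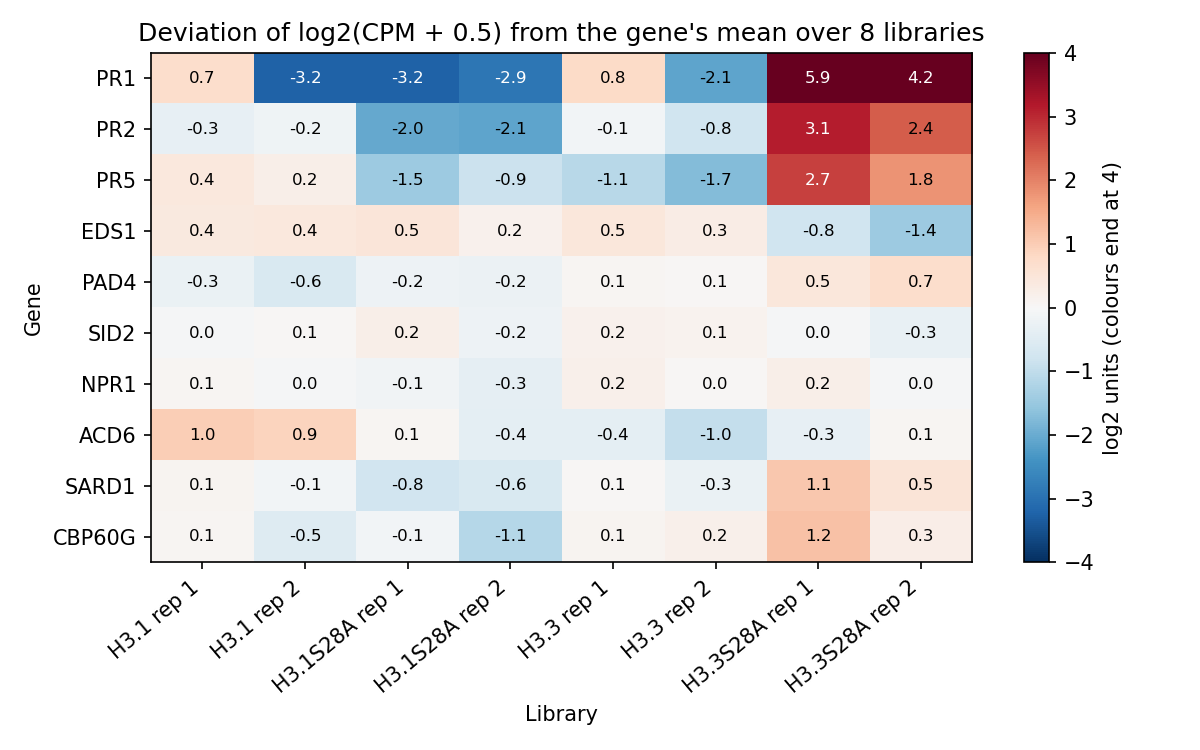
Deviation of log2(CPM + 0.5) from each gene's mean over the 8 libraries, by gene and library, with colours ending at 4 log2 units. PR1, PR2 and PR5 are above their mean in both H3.3S28A libraries, EDS1 is below its mean there, and SID2 and NPR1 stay close to 0 in every library.

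The genes with profiles most like those of PR1, PR2, PR5 and ACD6 were found by the root mean square distance between log2(CPM + 0.5) profiles centred over the 8 libraries, among 18225 genes. For PR2 they were GSTF7, a glutathione transferase (distance 0.32), LURP1 (0.49), EARLI1, a lipid-transfer-like protein (0.53), AT5G10760 (0.53) and AT4G12490 (0.59), against a median distance of 1.80. GSTF7 was at 7.40 and 5.55 CPM in H3.1, 2.47 and 2.81 CPM in H3.1S28A, 9.94 and 4.36 CPM in H3.3, and 72.8 and 57.9 CPM in H3.3S28A. PR5 lay nearest to BG3 (0.41), AT1G07050 (0.44), the arabinogalactan protein gene AGP5 (0.47), AT4G33980 (0.51) and AT1G11210 (0.52), against a median of 1.55. BG3 and AGP5 stayed under 1 CPM in every library outside H3.3S28A, so they reached the required mean of 1 CPM through that genotype. At such levels the pseudocount of 0.5 CPM flattens a profile, and these distances mostly restate the high H3.3S28A values. PR1 had no close match: its nearest genes were AT4G12490 (1.53), PDF1.3 (1.59), PCR1 (1.63), GSTF7 (1.75) and COR27 (1.76), against a median of 3.32. AT4G12490 and PDF1.3 were likewise low outside H3.3S28A, at 0.255 to 2.64 CPM and 0.353 to 1.09 CPM. ACD6 lay nearest to PRXCA, a peroxidase gene (0.22), FRO2, a ferric reductase gene (0.26), AT1G64380 (0.28), LTI78, a cold- and drought-induced gene (0.28), and AT1G26450 (0.29), against a median of 0.73. Among the members, PR2 was the 8th gene from PR1 (1.79), PR5 was the 42nd from PR2 (0.79), and SARD1 was the 382nd from PR5 (1.04). The ranks depend on the gene they start from. From PR2, PR1 was only the 8841st, at about the median distance of 1.80, and from PR5 it was the 17560th. PR2 was the 62nd from PR5. ACD6 was not among the near genes of any PR gene, and from ACD6 the distance was 1.87 to PR2 and 1.45 to PR5.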

How the data were processed

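The authors deposited read counts by gene, not normalized, in 2 tables with 1 pair of genotypes in each. TAIR10 is the build, and DESeq2, HISAT2 and Subread the tools, named in the submitters' processing notes. Not given in the sources used here are their versions, the annotation, the strand setting and how multiply mapping reads were counted. Columns were matched to samples by name, with those of H3.1 taken as replicates 1 and 2, and those of H3.1S28A carry the word new, which is not explained. Reads cover 8 RNA libraries, and 30 chromatin libraries were not analysed here. Gene symbols and neighbours came from the RefSeq gene table of TAIR10.1, which held 26719 of 27416 genes (97.5%). 26 listed genes have another symbol there, and no coordinates are given because the builds differ.

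Each pair was tested with edgeR 4.0.16 in R 4.3.3 (TMM, filterByExpr by group with a minimum count of 10, glmQLFit, glmQLFTest, Benjamini-Hochberg adjustment over all genes tested, threshold 0.05), and the difference between pairs as an interaction contrast on all 8 libraries. SE was computed as |log2 fold change| / sqrt(F). CPM were TMM-scaled over all 8 libraries, and marker sums used library totals. A pseudocount of 0.5 CPM was used for profiles and replicate ratios. The scripts were tested on simulated data. Alternatives were DESeq2 1.42.0, other size factors, no count filter, no organelle genes, a replicate block, 1 fit of all 8 libraries, leaving out each library and, added after seeing the data, removal of the trend on gene span. Where a library was left out, the lone library of its genotype was assumed to vary like the others.

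The 10 genes and 14 lists of 94 other genes were chosen with earlier results of these data known. From each list, up to 3 genes called in each direction per pair were named by size, with genes called in the interaction and the 5 nearest profiles of PR1, PR2, PR5 and ACD6. Named genes of the interaction are given in part. LURP1, CAMTA1, GSTF7, BG3, PDF1.2a and VSP1 were chosen for their levels, and VSP1, VSP2, WRKY70 and WRKY38 named beyond the rule, after the values were seen. Floral, leaf, root and senescence markers are given as sums, with single genes where they decide a sum or move apart from it.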

Additional observations from a re-analysis of the deposited data

Results flagged for a closer look

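For 6 of the 10 genes the S28A effect differed between the H3.1 and H3.3 pairs in the interaction contrast of edgeR, which tests the difference itself. The same contrast called 39.0% of all 20052 genes tested, 14.6% more negative and 24.4% more positive in H3.1. The log2 difference, H3.1 pair minus H3.3 pair, was -9.70 for PR1, -5.39 for PR2, -5.32 for PR5, -1.82 for SARD1, -1.66 for ACD6 and 1.40 for EDS1. PR2, PR5 and ACD6 were lower in both H3.1S28A libraries and higher in both H3.3S28A libraries than in either library of the unaltered histone of their pair. SARD1 had the same directions in all of its libraries but was not called in the H3.1 pair alone. EDS1 was lower in both H3.3S28A libraries, and its H3.1 pair overlapped. The value for PR1 rests on H3.1 replicate 1, with 200 counts against 3 in H3.1 replicate 2.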

How the results depend on the processing

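Of the members' values under the alternatives, 325 kept their direction and side of the threshold, 7 lost the call, 8 gained one and 9 turned in direction. Of the other listed genes only those picked by the naming rule were followed. All of them were called to begin with, so they could not gain a call. They kept theirs in 1068 cases, lost the call in 89 and turned in 5. Genes called in the H3.1 pair fell from 2560 to 1324 without H3.1 replicate 1 and 1152 without H3.1 replicate 2 (1152 to 3480 over single libraries left out), and the members called there were 5 with no count filter and 3 to 5 with a library left out. Leaving out 1 library gave 8875 to 11234 genes and 6 to 8 members in the H3.3 pair, and 6209 to 7642 genes and 5 to 7 members for the contrast between pairs. DESeq2 called 1850, 9797 and 6678 genes and 3, 7 and 6 members. Values that turned were not called in either setting unless a p is given. In the H3.1 pair SID2 was 0 with the replicate block, -0.04 without H3.1 replicate 1 and -0.23 to 0.24 without one of the libraries in turn, the lowest without H3.1S28A replicate 1. EDS1 was 0.09 and CBP60G 0.10 without H3.1S28A replicate 2, and CBP60G was -1.12 without H3.1S28A replicate 1. SAG13, a senescence marker, was -0.70 (adjusted p 0.538) without H3.1S28A replicate 1 and 4.34 without H3.1S28A replicate 2, against 3.3 (adjusted p 0.0422). In the H3.3 pair NPR1 was -0.05 without H3.3 replicate 2 -0.11 without H3.3S28A replicate 1 and 0.18 without H3.3S28A replicate 2. With the trend on gene span removed, SID2 was 0.23 in the H3.3 pair and -0.12 in the contrast, ADR1-L1 0.47 (adjusted p 0.00916), TGA4 0.51 (adjusted p 0.0145), NIMIN3 -0.15 (adjusted p 0.28) and LHCB1.3 -0.30 (adjusted p 0.00434). PAD4 was called in the contrast under that setting (-0.63, adjusted p 0.0322). The causes were not tested. Replicate numbers did not pair the samples (correlation of same-numbered deviations -0.01 in the H3.1 pair and 0.029 in the H3.3 pair). The fit with a replicate block called 2836, 11472 and 7527 genes and 3, 8 and 6 members. PR1 in the H3.1 genotypes is limited by low counts, 2 to 7 in 3 of its 4 libraries, and by the disagreement of the H3.1 replicates. Those held 200 and 3 counts of PR1 at like totals of 20624191 and 22285836.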
